A study of Homo sapiens with 24 samples.

Results

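The response of MOLT4 cells to SK-3-91 was followed from 4 to 8 h as a difference of differences. For each gene it is the log2 ratio of SK-3-91 over DMSO at 8 h minus the same ratio at 4 h. The contrast draws on 16 of the 24 libraries of the series, 4 in each of 4 groups, and was tested for all 9822 genes of the count table. The genes named below were taken partly for the size of this difference. MOLT4 is an established human T-cell acute lymphoblastic leukaemia line, and every library came from it. The groups were DMSO for 4 h, SK-3-91 for 4 h, DMSO for 8 h and SK-3-91 for 8 h. DMSO is the solvent, the labels call SK-3-91 a pan-kinase degrader, and no dose is given in the sources used here. The question is which transcripts moved further, came back or turned after 4 h. Whether the 4 replicates of a group were grown apart is not stated, so the p-values cover the spread among these libraries alone, possibly a technical one.

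Degraders carry a target protein to a ubiquitin ligase, after which the proteasome destroys it. Some kinases, such as CDK7, CDK9 and CDK12, phosphorylate RNA polymerase II and allow it to start, leave the pause near the promoter and elongate, and messages with short half-lives are the first to fall when these kinases are lost. Other kinases carry T-cell receptor, growth factor and cell-cycle signals, while p53 and the hypoxia-inducible factors are transcription factors that respond to damage and to low oxygen.

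In megareads (M), the counted reads of the 4 libraries had a mean of 14.43 ± 0.117 M (SD) for DMSO and 10.78 ± 0.0975 M for SK-3-91 after 4 h. After 8 h DMSO had 14.24 ± 0.464 M. The SK-3-91 libraries then had 8.3 ± 0.982 M, and the shallowest of them held 6.86 M. The treated mean at 8 h was 77% of that at 4 h (exact two-sided permutation p = 0.0286, the smallest that 4 against 4 allows), and the DMSO mean was 98.7% (exact permutation p = 0.629). Levels are given as CPM, counts relative to the library's total, scaled by TMM, a factor that sets most genes level between libraries. They give a gene's share among the genes rather than copies per cell. What lowered the treated totals was not tested. Fewer cells, less RNA per cell and the depth to which a library was read cannot be told apart. Of 29 T-cell leukaemia markers, 26 were measured, with a summed level of 9210 to 9450 CPM in DMSO and 9100 to 9550 CPM in SK-3-91 at 4 h. At 8 h the sums were 9780 to 10300 CPM in DMSO and 7900 to 8820 CPM in SK-3-91. Among markers of other cells, CD79A was measured, at 23.3 to 30.5 CPM in SK-3-91 and 6.35 to 10.4 CPM in DMSO at 8 h, as was PECAM1, at 15.7 to 20.8 and 42.7 to 43.7 CPM. The other B-cell, fibroblast and endothelial markers, and all myeloid, erythroid and epithelial ones, were not analysed here.

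The response differed between 4 and 8 h for 6738 of 9822 genes (68.6%; edgeR quasi-likelihood test, adjusted p under 0.05). Such a gene is called higher where its log2 ratio over DMSO was larger at 8 h, and lower where it was smaller. There were 3493 genes called higher (35.6%) and 3245 called lower (33.0%), of which 391 (3.98%) and 545 (5.55%) differed by at least 2-fold. The share of calls that were higher was 51.8%. It was 56.0% with RLE factors, 42.0% with upper-quartile factors and 39.6% without scaling factors, because these last 2 scalings moved the median of all genes by -0.11 and -0.13 on the log2 scale. A fit of the 16 libraries alone, with TMM, gave 3237 higher and 3386 lower genes (48.9% higher). Directions below are relative to the TMM centre, at which the median of all genes was 0.01.

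Most of the movement lay in the treated arm. Between 4 and 8 h, 7213 genes (73.4%; 38.9% higher, 34.5% lower) changed in SK-3-91 and 3019 (30.7%; 15.9% higher, 14.8% lower) in DMSO. Of the 6738 genes called, the SK-3-91 arm had the larger change in 6041 (89.7%) and the DMSO arm in 697. Among the 545 genes at least 2-fold lower, 194 also rose in DMSO and 37 had their larger change there. These comparisons share libraries with the difference of differences and only show where it came from.

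Against DMSO, 87.9% of all genes were called at 4 h (42.0% higher, 45.9% lower) and 89.4% at 8 h (41.3% higher, 48.1% lower). By these calls the genes whose response differed formed 10 patterns, apart from 8 genes. The commonest was a response already higher at 4 h and higher still at 8 h, in 1741 genes, with a median log2 ratio of 0.73 at 4 h and 1.35 at 8 h. Its counterpart, lower at 4 h and lower still at 8 h, held 1563 genes (medians -0.75 and -1.50). A response that went back toward DMSO was seen in 709 genes lower at both times and in 471 genes higher at both times. A further 296 genes lower at 4 h and 313 genes higher at 4 h were not called against DMSO at 8 h. Late responses, not called at 4 h, numbered 379 higher and 440 lower. The direction over DMSO turned from lower to higher in 364 genes and from higher to lower in 454. Without scaling factors the pair of deepening patterns changed to 1003 higher and 2569 lower genes.

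**Figure D1:**
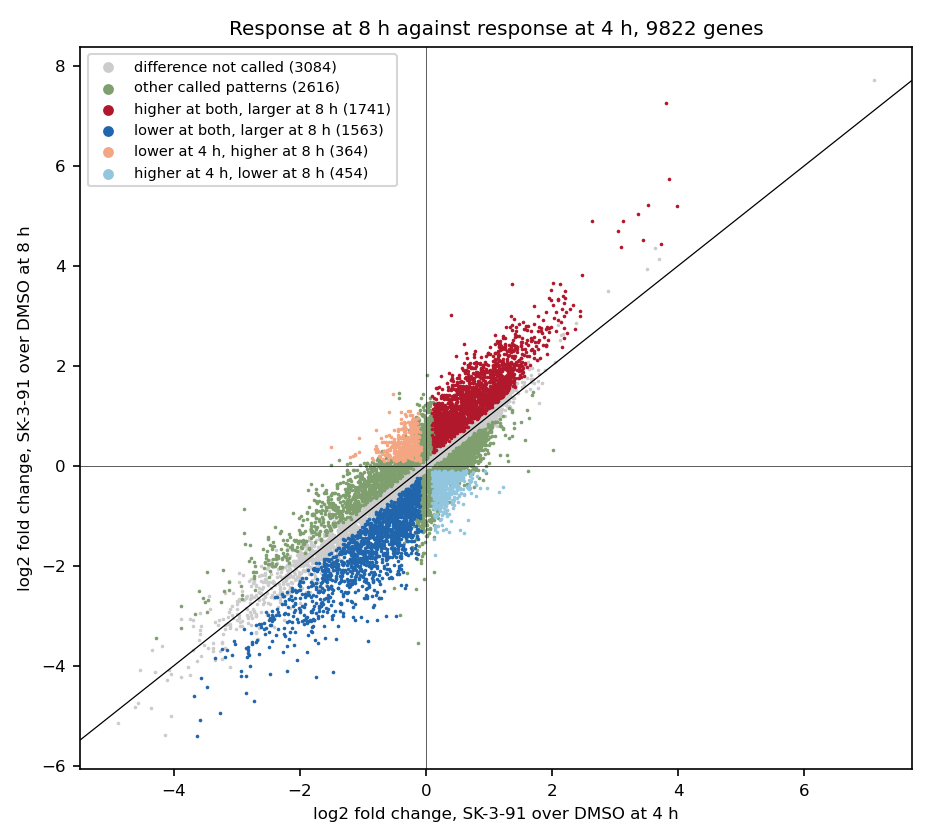
Response at 8 h (log2 fold change of SK-3-91 over DMSO, vertical axis) against the response at 4 h (horizontal axis) for 9822 genes, 1 point a gene; the diagonal is an equal response, and colours give the patterns with their numbers. The 1741 genes higher at both times and larger at 8 h lie above the diagonal on the right, and the 1563 genes lower at both times lie below it on the left.

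TNFSF13B, which encodes the cytokine BAFF, had the largest increase among named genes. In SK-3-91 its level was 6.69, 3.21, 4.69 and 5.22 CPM in the 4 libraries at 4 h and 37.7, 32.8, 35.4 and 47.4 CPM at 8 h. In DMSO it was 0.563, 0.315, 0.313 and 0.191 CPM at 4 h and 0.256, 0.252, 0.204 and 0.258 CPM at 8 h. Every treated library at 8 h stood above every treated library at 4 h, while the DMSO libraries of the 2 times overlapped at a very low level. The log2 ratio over DMSO went from 3.80 to 7.25, a difference of 3.45 ± 0.57 (SE, n = 4 per group; edgeR adjusted p = 1.5e-06).

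SESN1 encodes a sestrin, a stress protein that restrains mTORC1 and is induced by p53 and FOXO factors. Its 4 treated libraries held 33.8, 32.6, 34.5 and 39.8 CPM at 4 h and 223, 203, 204 and 239 CPM at 8 h. The DMSO libraries held 26.1, 27.5, 26.3 and 26.8 CPM at 4 h and 24.2, 27.9, 28.6 and 27.1 CPM at 8 h. The treated groups did not overlap and the DMSO groups did. The difference was 2.61 ± 0.09 (edgeR adjusted p = 7.5e-25), between a log2 ratio of 0.40 at 4 h and 3.01 at 8 h.

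p53 targets had the highest median of the 32 lists described, 0.76 against 0.01 for all genes. Over DMSO, however, the list's median log2 ratio was -0.01 at 4 h and 0.11 at 8 h. Its members' differences ran from -1.22 to 2.61. Of 27 measured, 16 were called higher (59.3%, against 35.6% of all genes) and 6 lower. Besides SESN1 these included ZMAT3, an RNA-binding protein gene, at 1.53 ± 0.09, and TP53INP1, a p53-induced nuclear protein gene, at 1.87 ± 0.26. PHLDA3, an AKT-inhibiting p53 target at 1.88 ± 0.24, is uncertain because it shares sequence or opposite-strand exons with another gene. GADD45A, a growth-arrest gene in the FOXO list, measured 13.0, 12.2, 15.3 and 12.3 CPM in treated libraries at 4 h and 34.4, 33.2, 34.3 and 31.5 CPM at 8 h. Its DMSO libraries held 8.64 to 11 CPM at 4 h and 9.51 to 12 CPM at 8 h. The treated groups stood apart and the DMSO groups overlapped (difference 1.32 ± 0.13; edgeR adjusted p = 1e-11). FOXO-induced genes as a list were mixed, with 9 of 21 higher (42.9%, against 35.6% of all genes) and 7 lower (33.3%, against 33.0%). The counts were 7 and 9 without scaling factors.

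Of 35 transcription kinase, cyclin and pause factor genes, 20 were called higher (57.1%, against 35.6% of all genes) and 10 lower (28.6%, against 33.0%), with a median of 0.40. ELL, a factor that helps the polymerase elongate, held 67.5, 64.2, 74.2 and 72.7 CPM in treated libraries at 4 h and 188, 174, 165 and 193 CPM at 8 h. The DMSO libraries held 38.5 to 43 CPM at 4 h and 38.2 to 41.4 CPM at 8 h. The treated groups did not overlap and the DMSO groups did (difference 1.41 ± 0.08; edgeR adjusted p = 2.9e-18). The cyclin K gene CCNK differed by 1.22 ± 0.07 (uncertain, for shared sequence or opposite-strand exons).

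The kinase genes of that list had smaller differences. CDK7, of the initiation factor TFIIH, went from a log2 ratio of -1.10 at 4 h to -0.20 at 8 h (difference 0.90 ± 0.15), a return toward DMSO. CDK9, of P-TEFb, went from -0.21 to 0.31 (0.53 ± 0.08), and CDK13 from -0.33 to 0.17 (0.50 ± 0.06). CDK12 stood at -0.64 and -0.78, and its difference of -0.14 ± 0.06 was not called (edgeR adjusted p = 0.055). That call rests on the setting: upper-quartile factors (-0.25) and no scaling factors (-0.27) called it lower, and so did leaving out replicate 1 of DMSO at 4 h, 2 or 4 of SK-3-91 at 4 h, 2 or 4 of DMSO at 8 h, or 4 of SK-3-91 at 8 h (-0.17 to -0.15). RPRD1A, which binds the polymerase's C-terminal domain, was at DMSO's level at 4 h, with 60.3, 58.9, 62.7 and 64.7 CPM in treated libraries. At 8 h they held 202, 186, 171 and 205 CPM, against 50.6 to 59.7 CPM in DMSO. It was thus a late riser (difference 1.80 ± 0.08; edgeR adjusted p = 5.3e-22), and the treated groups did not overlap.

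Several genes lower at 4 h were above or back toward DMSO by 8 h. MCL1, an anti-apoptotic BCL-2 family member with a short-lived message, held 163, 160, 177 and 186 CPM in treated libraries at 4 h and 444, 435, 391 and 439 CPM at 8 h. In DMSO its range was 205 to 215 CPM at 4 h and 193 to 208 CPM at 8 h. Treated libraries were thus below all DMSO libraries at 4 h and above all of them at 8 h (difference 1.37 ± 0.06; edgeR adjusted p = 1.6e-21). ICOS, a T-cell costimulatory receptor gene, took the same path, with 15.5, 14.8, 13.6 and 14.5 CPM at 4 h and 45.0, 44.1, 44.8 and 45.2 CPM at 8 h. Its DMSO level fell a little, from 20.9 ± 1.11 to 16.5 ± 0.693 CPM (SD, n = 4), and the difference was 1.95 ± 0.10. SUFU, a Hedgehog pathway inhibitor gene, turned likewise, from -0.58 to 1.07.

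MTFR2, a regulator of mitochondrial fission, shows a partial return. Its treated libraries held 4.60, 4.36, 3.86 and 3.78 CPM at 4 h and 20, 18.5, 12.9 and 18.1 CPM at 8 h. In DMSO it ranged from 29.8 to 31.6 CPM at 4 h and from 28.9 to 35.2 CPM at 8 h. All treated libraries at 8 h were above those at 4 h and still below DMSO (difference 2.02 ± 0.16; edgeR adjusted p = 1.4e-14). The kinetochore gene CENPQ went from -1.51 to 0.01 and the copper transporter gene SLC31A2 from -1.38 to 0.11. AURKA, a mitotic kinase, returned in part, from -1.75 to -0.71, whereas its relative AURKB fell further, from -1.18 to -2.32. WEE1, which holds back mitotic entry, went from -0.65 to 0.06.

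**Figure D2:**
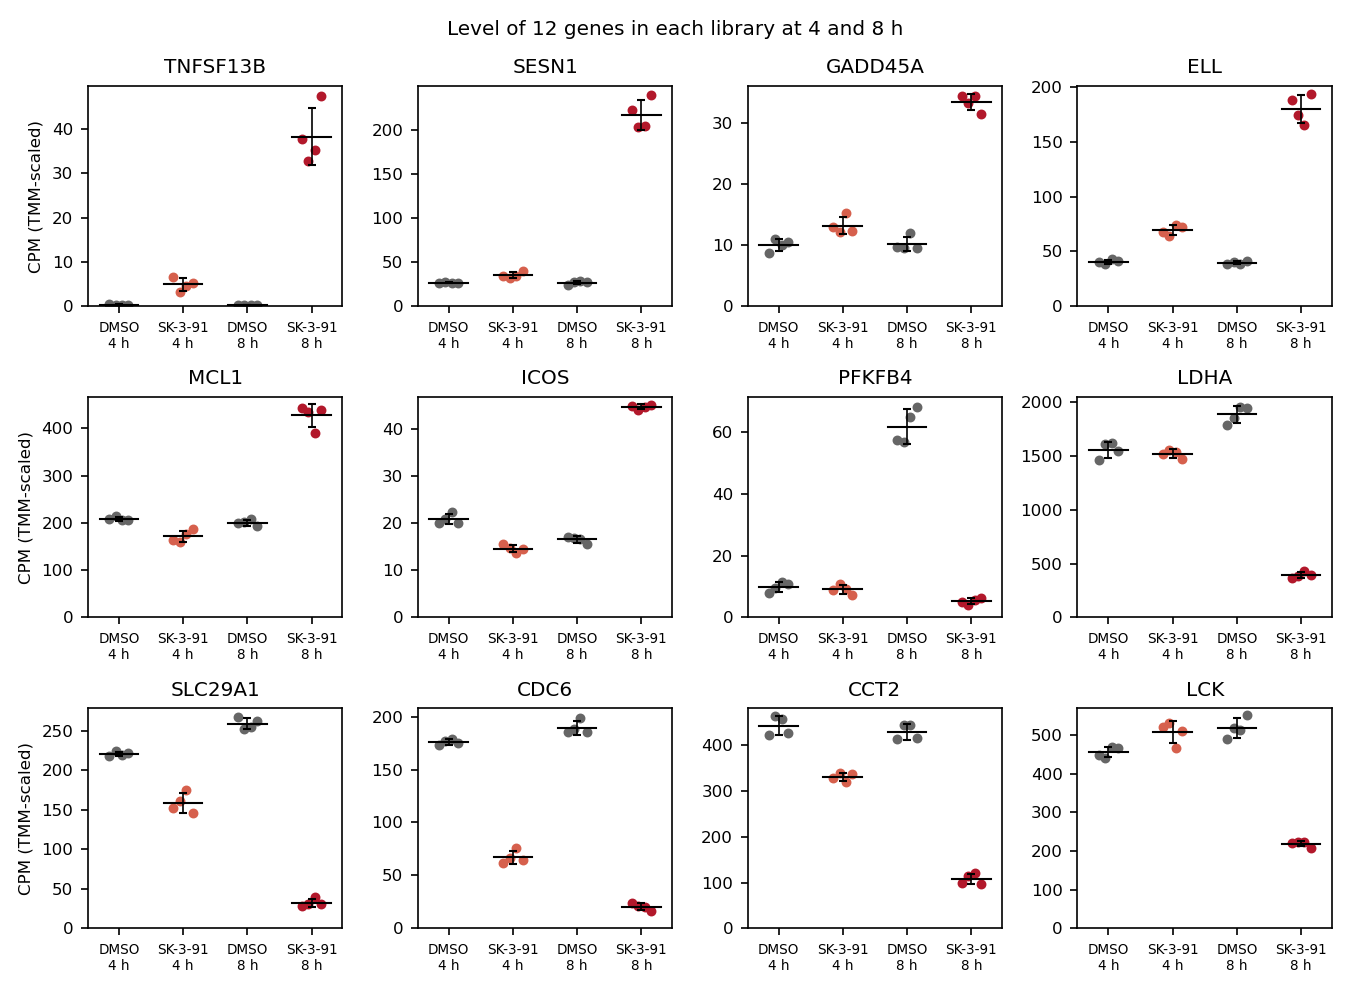
Level of 12 genes (TMM-scaled CPM, linear vertical axes from 0) in each library of DMSO and SK-3-91 at 4 and 8 h; points are libraries, bars the mean and SD of 4. SESN1 rose from 35.2 to 217 CPM in SK-3-91 at an even DMSO level, whereas PFKFB4 rose from 9.90 to 61.7 CPM in DMSO and not in SK-3-91.

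Glycolysis and hypoxia genes had the lowest median of all lists, -0.71. Of 39 measured, 27 were called lower (69.2%, against 33.0% of all genes) and 4 higher. Here the DMSO arm carried most of the difference. From 4 to 8 h 36 of the 39 rose in DMSO, where 15.9% of all genes rose, and 0 fell; the median change there was 0.67, whereas the median change in SK-3-91 was 0.10. All 27 members called lower rose in DMSO, and in 23 of them the DMSO change was the larger one. In SK-3-91, 9 of the 27 fell and 9 rose. For most members called lower the difference thus came from a rise in DMSO that exceeded the change in SK-3-91.

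PFKFB4, which makes and breaks the glycolytic activator fructose 2,6-bisphosphate, had the most negative value of all named genes. In DMSO its libraries held 7.95, 9.38, 11.4 and 10.9 CPM at 4 h and 57.3, 56.8, 64.7 and 68.1 CPM at 8 h. In SK-3-91 they held 8.88, 10.8, 9.07 and 7.36 CPM at 4 h and 5.06, 4.14, 5.53 and 6.38 CPM at 8 h. The DMSO libraries rose without overlap and the treated ones fell slightly, also without overlap (difference -3.42 ± 0.18; edgeR adjusted p = 2.6e-19). The DMSO arm also carried SLC16A3, the lactate exporter gene, which rose by 2.11 in DMSO and stood at -0.38, not called, in SK-3-91; its difference was -2.48 ± 0.36. MIR210HG, the host transcript of the hypoxia microRNA miR-210, rose by 2.25 in DMSO and stood at -0.12 in SK-3-91, not called.

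LDHA, the lactate dehydrogenase gene, differs from these. Its DMSO libraries held 1460, 1610, 1620 and 1550 CPM at 4 h and 1790, 1850, 1960 and 1950 CPM at 8 h. Its treated libraries held 1520, 1560, 1540 and 1470 CPM at 4 h and 366, 384, 429 and 389 CPM at 8 h. At 4 h the arms overlapped, and at 8 h all treated libraries lay far below DMSO. The fall of 1.96 on the log2 scale in SK-3-91 outweighed the rise of 0.27 in DMSO (difference -2.23 ± 0.06; edgeR adjusted p = 1.2e-27). GYG1, the glycogen primer glycogenin, fell by 2.33 in SK-3-91 and stood at -0.03, not called, in DMSO. The 12 measured enzymes of the pathway from GPI to PKM, a group formed after the values were seen, had a median of -0.14. Of them 5 were lower and 2 higher, beside 33.0% lower and 35.6% higher among all genes.

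The promoters of PFKFB4, MIR210HG, GYG1 and LDHA are shown because the response of these glycolysis, glycogen and hypoxia genes was lower at 8 h, through DMSO in some and SK-3-91 in others, and that of TNFSF13B because its difference was the highest among the genes named here. Each is the 250 bases before the first RefSeq start (GRCh38.p14), 5′ to 3′ on the gene's strand, with every ACGTG on either strand in capitals. ACGTG is a form of the core of the hypoxia response element, and other forms were neither marked nor counted. It also lies within the E-box CACGTG, which reads the same on both strands.
PFKFB4 (chr3:48556804-48557053, minus strand): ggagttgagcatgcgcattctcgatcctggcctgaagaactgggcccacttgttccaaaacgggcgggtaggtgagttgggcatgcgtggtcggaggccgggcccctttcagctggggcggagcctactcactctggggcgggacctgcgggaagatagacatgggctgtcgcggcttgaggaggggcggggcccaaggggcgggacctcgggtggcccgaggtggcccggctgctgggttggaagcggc
MIR210HG (chr11:568458-568707, minus strand): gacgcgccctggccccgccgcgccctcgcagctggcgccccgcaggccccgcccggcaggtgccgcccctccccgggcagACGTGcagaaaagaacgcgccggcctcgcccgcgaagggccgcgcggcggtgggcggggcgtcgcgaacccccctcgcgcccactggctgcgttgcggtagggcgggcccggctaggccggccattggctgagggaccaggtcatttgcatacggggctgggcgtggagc
GYG1 (chr3:148991290-148991539, plus strand): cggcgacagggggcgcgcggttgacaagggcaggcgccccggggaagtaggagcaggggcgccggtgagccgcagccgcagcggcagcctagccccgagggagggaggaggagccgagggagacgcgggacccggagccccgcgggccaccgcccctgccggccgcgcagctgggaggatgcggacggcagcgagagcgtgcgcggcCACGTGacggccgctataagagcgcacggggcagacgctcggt
LDHA (chr11:18394313-18394562, plus strand): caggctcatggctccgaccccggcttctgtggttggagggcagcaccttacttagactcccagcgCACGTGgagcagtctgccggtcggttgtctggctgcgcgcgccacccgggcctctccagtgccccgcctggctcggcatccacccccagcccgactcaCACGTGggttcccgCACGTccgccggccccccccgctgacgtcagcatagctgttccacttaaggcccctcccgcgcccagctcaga
TNFSF13B (chr13:108269379-108269628, plus strand): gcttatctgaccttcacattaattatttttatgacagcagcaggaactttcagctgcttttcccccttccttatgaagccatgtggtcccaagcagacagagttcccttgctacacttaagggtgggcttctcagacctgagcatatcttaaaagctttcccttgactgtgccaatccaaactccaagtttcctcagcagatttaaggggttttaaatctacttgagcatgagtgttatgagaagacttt

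LDHA had ACGTG at 3 places, MIR210HG and GYG1 at 1 place each, and the windows of PFKFB4 and TNFSF13B at 0. RefSeq lists 2 starts each for LDHA and TNFSF13B, and only the first listed window of a gene was searched. Of all 27305 RefSeq promoters, 18.7% held ACGTG in this window, and of the 8103 promoters of tested genes 24.6% did. Among genes at least 2-fold higher it was in 23.0% of 309 promoters, and among those at least 2-fold lower in 27.4% of 442. In the glycolysis and hypoxia list 12 of 24 promoters of members called lower held it (50.0%), as did 5 of 11 of the other members (45.5%). The full E-box CACGTG was in 9.39% of promoters of the higher genes, 13.1% of the lower and 9.65% of all tested. The cAMP response element TGACGTCA was in 15 of the higher promoters (4.85%), 8 of the lower (1.81%) and 3.06% of all tested. These matches are descriptions of letters in a window and not of binding.

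Of 58 G1/S and DNA replication genes, 37 were called lower (63.8%, against 33.0% of all genes) and 14 higher, with a median of -0.38. In SK-3-91 35 of them fell and 15 rose from 4 to 8 h, and in DMSO 6 fell and 13 rose. Of all genes 34.5% fell and 38.9% rose in SK-3-91, and 14.8% and 15.9% in DMSO. CDC6, which loads the replicative helicase, held 61.3, 66.5, 75.6 and 64.9 CPM in treated libraries at 4 h and 24.3, 21.2, 20.5 and 16.4 CPM at 8 h. The DMSO range was 173 to 179 CPM at 4 h and 185 to 199 CPM at 8 h. The treated groups did not overlap, and the DMSO change of 0.11 was not called (difference -1.81 ± 0.09; edgeR adjusted p = 5.8e-20). All 6 measured subunits of that helicase, MCM2 to MCM7, were called lower, with a median of -1.05; this group was formed after the values were seen. MCM6 differed by -1.51 ± 0.05 and the clamp loader gene RFC2 by -1.90 ± 0.09.

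Mitotic genes went upward more often than downward. Of 64 G2/M and mitotic genes, 32 were called higher (50.0%, against 35.6% of all genes) and 20 lower (31.2%, against 33.0%). Their median was 0.17, and the lead shrank to 28 and 27 without scaling factors. The kinesin genes KIF18A and KIF23 differed by 1.34 ± 0.10 and 1.36 ± 0.06. KIF18A had been lower at 4 h (-1.15) and was at 0.19 at 8 h, whereas KIF23 was higher throughout (0.66 and 2.02). PKMYT1, a kinase that inhibits mitotic entry, differed by -1.64 ± 0.08 and is uncertain for shared sequence or opposite-strand exons.

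In the chaperone list 25 of 36 genes were called lower (69.4%, against 33.0% of all genes) and 7 higher, with a median of -0.50. CCT2, a subunit of the TRiC chaperonin that folds actin, tubulin and other proteins, held 328, 340, 320 and 337 CPM in treated libraries at 4 h and 99.2, 114, 120 and 96.4 CPM at 8 h. DMSO libraries held 422 to 463 CPM at 4 h and 413 to 445 CPM at 8 h. The treated groups stood well apart, with overlapping DMSO groups (difference -1.58 ± 0.07; edgeR adjusted p = 9.7e-22). All 8 TRiC subunits were called lower, between -1.58 and -0.13, with a median of -0.87; they too were grouped after the values were seen. The chaperone list also rose in DMSO, in 21 of 36 members, where 15.9% of all genes rose. Its median change was 0.14 in DMSO and -0.34 in SK-3-91.

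Of 30 unfolded protein response genes, 15 were lower (50.0%, against 33.0% of all genes) and 7 higher, with a median of -0.28. In DMSO 17 of them rose, where 15.9% of all genes rose, and 1 fell, with a median change of 0.17. In SK-3-91 13 rose and 14 fell (of all genes 38.9% rose and 34.5% fell), with a median of -0.03. CALR, the calcium-binding chaperone calreticulin, held 1020, 1020, 1040 and 998 CPM in treated libraries at 4 h and 371, 375, 431 and 407 CPM at 8 h. Its DMSO libraries held 1540 to 1610 CPM at 4 h and 1710 to 1860 CPM at 8 h. Neither arm's groups overlapped between the times (difference -1.51 ± 0.06; edgeR adjusted p = 8.6e-24). MANF, a secreted stress protein gene, rose by 0.70 in DMSO and fell by 0.92 in SK-3-91, while PDIA4, a disulfide isomerase gene, rose by 0.62 and fell by 0.57. Of 24 ATF4 and stress response genes, 11 were lower (45.8%, against 33.0% of all genes) and 5 higher, with a median of -0.21. SLC1A4, a neutral amino acid transporter gene, stood at -1.90 ± 0.10 and CEBPG at 1.11 ± 0.08.

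Of 45 T-lineage surface and signalling genes, 26 were called lower (57.8%, against 33.0% of all genes) and 11 higher, with a median of -0.45. In SK-3-91 21 of them fell and 13 rose, and in DMSO 9 fell and 19 rose. The shares of all genes were 34.5% and 38.9% in SK-3-91, and 14.8% and 15.9% in DMSO. LCK, the kinase that starts T-cell receptor signalling, held 521, 531, 466 and 510 CPM in treated libraries at 4 h and 222, 223, 224 and 209 CPM at 8 h. In DMSO it held 441 to 470 CPM at 4 h and 489 to 553 CPM at 8 h. It was thus slightly above DMSO at 4 h (log2 ratio 0.15) and well below it at 8 h (-1.24), a difference of -1.39 ± 0.06 (edgeR adjusted p = 3.9e-22). PTPN6, the phosphatase SHP-1, went from -1.49 to -3.01, and CD4 from 0.80 to -0.60, where DMSO rose by 0.96. ICOS went the other way, as given above.

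MYC, a growth-promoting transcription factor and a Notch target in T-cell leukaemia, fell further. Its treated libraries held 374, 407, 385 and 380 CPM at 4 h and 116, 121, 138 and 138 CPM at 8 h. In DMSO it held 734 to 761 CPM at 4 h and 619 to 661 CPM at 8 h, so both arms fell without overlap. The difference was -1.38 ± 0.06 (edgeR adjusted p = 1.5e-21). Of 15 Notch receptors and targets 10 were lower (66.7%, against 33.0% of all genes) and 4 higher, with a median of -0.42. DTX1, a Notch pathway ubiquitin ligase gene, stood at -0.84 ± 0.12 and NOTCH3 at -0.97 ± 0.13. MYB, another leukaemia transcription factor, was about as low at 8 h as at 4 h (-1.95 and -2.18); its difference of 0.23 ± 0.05 passed the test, but not with upper-quartile factors (0.12) or without scaling (0.10). The 18 T-leukaemia transcription factors had 7 higher (38.9%) and 6 lower (33.3%), near the 35.6% and 33.0% of all genes. This order turned to 4 and 7 without scaling. FLI1, an ETS factor, fell further, from -1.93 to -2.99.

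Lists of the protein supply chain divided, against 35.6% higher and 33.0% lower among all genes. Cytosolic ribosomal protein genes were higher in 38 of 69 (55.1%) and lower in 6, with a median of 0.19 added to 1.20 at 4 h; without scaling factors 24 were higher and 16 lower. Of 68 mitochondrial ribosomal protein genes 39 were lower (57.4%) and 9 higher (median -0.33), for example MRPL47 at -1.28 ± 0.09. Of 54 nucleolar ribosome biogenesis genes 30 were lower (55.6%) and 14 higher (25.9%), with a median of -0.30. In that list 34 members also fell in DMSO and 0 rose, where 14.8% of all genes fell and 15.9% rose. GNL3, nucleostemin, differed by -1.05 ± 0.07, and POLR1D, a subunit of polymerases I and III, by 1.31 ± 0.05. Of 49 translation factor genes 26 were lower (53.1%) and 13 higher, and of 39 proteasome genes 23 (59.0%) and 10. PSMG1, a proteasome assembly chaperone gene, stood at -1.65 ± 0.08, and the eIF3 subunit gene EIF3A at 1.03 ± 0.06.

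Of 42 interferon and antigen presentation genes 27 were lower (64.3%, against 33.0% of all genes) and 4 higher, with a median of -0.38. SAMD9L differed by -1.15 ± 0.10, the RNA sensor gene OAS2 by -1.02 ± 0.12 and IFI35, which turned from 0.45 to -0.79, by -1.23 ± 0.11. NF-kB targets were higher in 9 of 16 (56.2%, against 35.6% of all genes) and lower in 4, with a median of 0.31. BIRC2, a ubiquitin ligase that blocks death signalling, rose to 1.36 from 0.13 over DMSO. IKBKE, an IKK-related kinase gene, fell to -2.82 from -0.84. CRBN and cullin-RING ligase genes were higher in 16 of 30 (53.3%, against 35.6% of all genes) and lower in 6, with a median of 0.26. CRBN, a substrate receptor that many degraders recruit, was at -0.28 at 4 h and 0.02 at 8 h; its difference of 0.29 ± 0.09 was not called with upper-quartile factors (0.19) or without scaling (0.16).

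Signal-dependent lists were small and mixed. Immediate-early genes were higher in 7 of 16 and lower in 4, beside 35.6% higher and 33.0% lower among all genes. In DMSO 10 of the 16 rose, where 15.9% of all genes rose. KLF6, a zinc-finger factor gene, held 196, 184, 199 and 214 CPM in treated libraries at 4 h and 569, 548, 535 and 574 CPM at 8 h. Against 49.5 to 53.7 and 54.1 to 55.6 CPM in DMSO, its treated libraries rose without overlap (difference 1.40 ± 0.07; edgeR adjusted p = 1.6e-20). EGR1 stayed near its level in SK-3-91 (0.09, not called) while it rose by 0.95 in DMSO, which gave -0.86 ± 0.18. Of 11 ERK output genes 6 were lower (54.5%, against 33.0% of all genes) and 3 higher. PHLDA1, a pleckstrin-homology protein gene, led the risers at 2.25 ± 0.43. Its DMSO libraries summed to 43 counts at 4 h and 39 at 8 h.

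Other metabolic lists, here beside 35.6% higher and 33.0% lower among all genes, had no direction that held under every scaling. Oxidative phosphorylation genes were higher in 24 of 69 and lower in 21, against 15 and 29 without scaling; NDUFA8, a complex I subunit gene, differed by -1.12 ± 0.09. Sterol synthesis genes were higher in 14 of 30 and lower in 11, against 13 and 15. SC5D, a desaturase gene of the late steps of cholesterol synthesis, held 54.4, 54.9, 58.5 and 63.1 CPM in treated libraries at 4 h and 133, 128, 109 and 122 CPM at 8 h. The DMSO range was 52.9 to 56.8 CPM at 4 h and 49.7 to 55.4 CPM at 8 h, so the treated groups stood apart and the DMSO groups overlapped (difference 1.18 ± 0.08; edgeR adjusted p = 3.6e-16). Lysosome and autophagy genes were higher in 23 of 52 and lower in 14, against 13 and 18 without scaling.

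**Figure D3:**
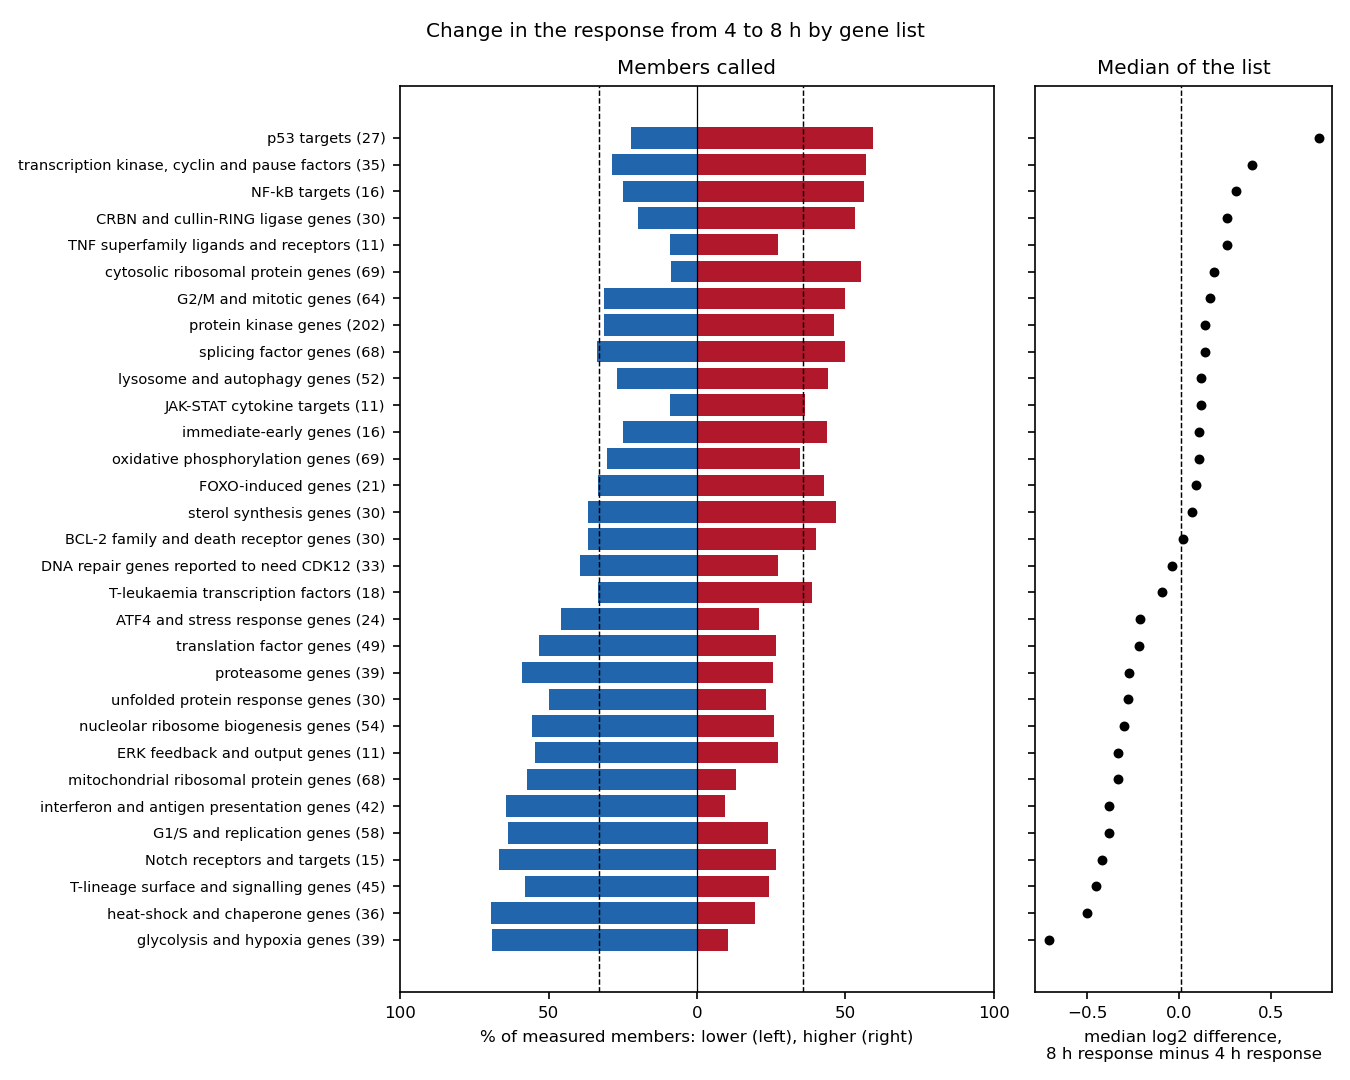
Left, percent of measured members called lower (left of 0) and higher (right of 0) in each gene list, with the number measured in brackets (the histone list, with 4 measured, is not drawn); dashed lines mark 33.0% and 35.6%, the shares of all genes. Right, the list's median difference in log2 response (dashed line, all genes); p53 targets are at 0.76 and glycolysis and hypoxia genes at -0.71.

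Messages for protein kinases, the class of protein that the compound is named for, went both ways. Of 202 kinase genes 93 were higher (46.0%, against 35.6% of all genes) and 63 lower (31.2%, against 33.0%), with a median of 0.14. But without scaling factors 74 were higher and 73 lower. VRK1, a chromatin kinase gene, turned from 0.19 to -1.20, and CDK6, a G1 kinase gene, was higher at both times (0.34 and 0.89). CDK4, another G1 kinase gene, turned from 0.29 to -0.95 and is uncertain for shared sequence or opposite-strand exons. Splicing factor genes were higher in 34 of 68 (50.0%, against 35.6% of all genes) and lower in 23 (33.8%, against 33.0%). SRSF4, a serine and arginine-rich factor gene, turned from -0.40 to 0.86, and HNRNPD, which binds AU-rich messages, from 0.18 to -1.0.

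SLC29A1, a nucleoside transporter gene, was lower at 4 h and fell further. Its treated libraries held 152, 161, 175 and 146 CPM at 4 h and 28, 30.5, 40 and 31.3 CPM at 8 h. In DMSO it held 218 to 224 CPM at 4 h and 252 to 267 CPM at 8 h. Both arms moved without overlap, in opposite directions, to a difference of -2.53 ± 0.08 (edgeR adjusted p = 1.4e-25). Others among the 12 most negative were FAM171A2 (-2.66), RASAL1 (-2.58), the apelin gene APLN (-2.57), AGPAT2 (-2.33), NPTX2 (-2.24) and the prolyl hydroxylase gene EGLN3 (-2.17). RASAL1 and APLN rose in DMSO by 1.63 and 1.02. Among the 12 most positive were also PYGM, the muscle glycogen phosphorylase gene (2.26 ± 0.27), PKD1L3 (1.89 ± 0.43), ARRDC4, an arrestin-domain gene (1.83 ± 0.11), and CPSF4L (1.78 ± 0.29). For PKD1L3 the DMSO libraries summed to 27 counts at 4 h and 19 at 8 h.

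Some returns toward DMSO and some turns came wholly or partly from the DMSO arm. PPFIA4, a liprin gene, was 2.01 above DMSO at 4 h and 0.32 at 8 h, because DMSO rose from 5.53 to 21.8 CPM while SK-3-91 went from 22.3 to 26.9 CPM. SDK2, an adhesion protein gene, turned from 1.16 to -0.53, with a rise of 0.92 in DMSO and a fall of 0.77 in SK-3-91. In contrast GALK1, the galactokinase gene, turned from 0.60 to -1.35 through a fall of 1.75 in SK-3-91, and C7orf50 from 0.15 to -1.78 through one of 1.88.

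The 1 h libraries are not among the 16 that the difference of differences contrasts, though they share its scaling and estimate of spread. They allow genes to be sorted by their first response, in which 54.3% were called (24.9% higher, 29.4% lower). The counts that follow describe the sets and were not tested. Of the 319 genes at least 2-fold lower at 1 h, 165 (51.7%) were called higher from 4 to 8 h and 21 (6.58%) lower. Of 2570 genes lower at 1 h by less than 2-fold, 54.7% were higher and 14.9% lower. The 2448 genes higher at 1 h were the reverse, with 22.7% higher and 50.2% lower. The 319 early fallers had a median log2 ratio of -1.29 at 1 h, -1.52 at 4 h and -1.14 at 8 h. At 8 h 252 of them were still below DMSO, called or not, as were 5280 of all 9822 genes. They were less abundant, with a median highest level of 22.3 CPM against 61.5 CPM for all genes.

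**Figure D4:**
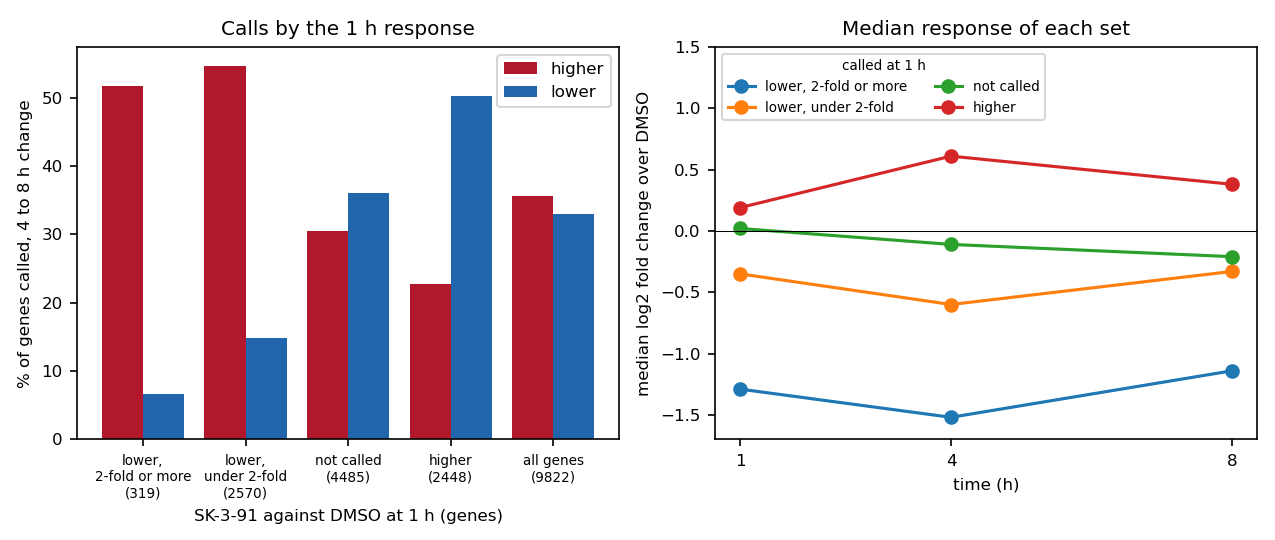
Left, percent of genes called higher and lower from 4 to 8 h among genes sorted by their response at 1 h (numbers of genes in brackets). Right, the median log2 fold change over DMSO of each set at 1, 4 and 8 h; the set at least 2-fold lower at 1 h goes from -1.52 at 4 h to -1.14 at 8 h.

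Transcript length and base composition differed along with the calls. Genes at least 2-fold higher had a median transcript of 4486 bases, a GC content of 43.2% and a genomic span of 50.1 kb. Those at least 2-fold lower had 2524 bases, 52.6% and 22.1 kb, against 3466 bases, 47.9% and 34.1 kb for all genes (9647 of 9822 matched GENCODE). Cut into 5 equal sets by GC, the set with the least had 49.0% higher and 22.4% lower, and the set with the most 27.7% and 37.4%. Cut likewise by length, the shortest set had 23.2% higher and 42.0% lower, and the longest 45.1% and 25.1%. The part of length in the result was not tested. With GC-dependent offsets, chosen after seeing the data, 3765 genes were higher and 3117 lower, and 1 call turned in direction; p53 targets then had a median of 0.73 and glycolysis and hypoxia genes -0.65.

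**Figure D5:**
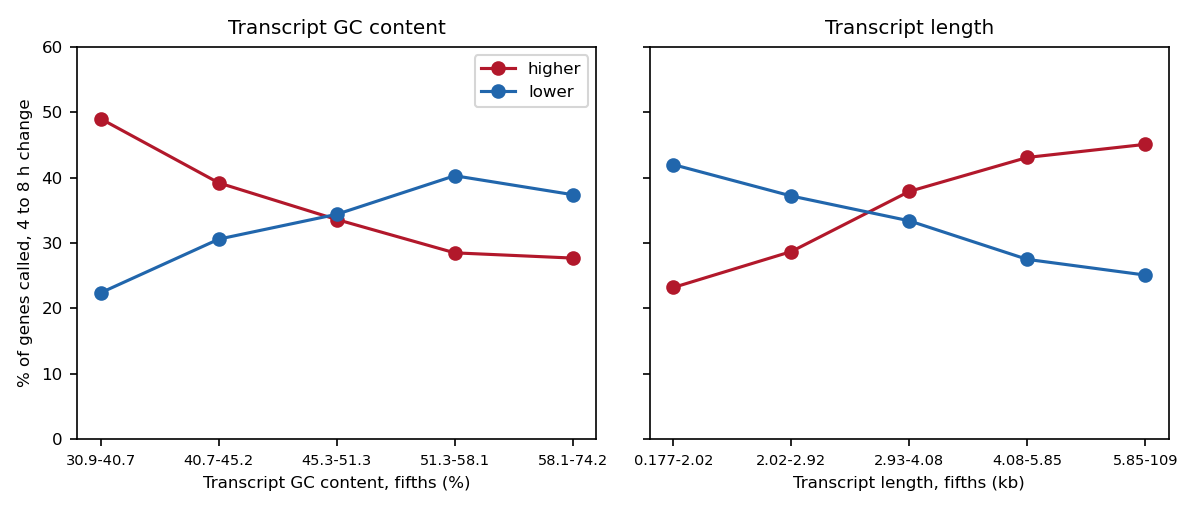
Percent of genes called higher and lower from 4 to 8 h in 5 equal sets by transcript GC content (left, percent) and by transcript length (right, kb). The share called higher goes from 49.0% in the least GC-rich set to 27.7% in the most, and from 23.2% in the shortest set to 45.1% in the longest.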

How the data were processed

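RNA-seq was done on 24 MOLT4 libraries, 16 of them at 4 and 8 h, read on the BGISEQ-500 as single-end 50-base reads per the labels' protocols. The authors deposited whole-number read counts per Entrez gene, not normalized. A second deposited table, named for RPKM, holds log2 values without gene length, and only its symbols were used. A deposited gene width column (unit other) entered no test. Per the submitters' processing notes edgeR and build hg19 were used. The aligner, counter and strand setting are not given in the sources used here. Genes of low expression are not analysed here, since the lowest mean count in the table is 32.04.

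The deposited counts went into edgeR 4.0.16 (R 4.3.3) with TMM factors and group means over all 24 libraries; filterByExpr removed 0 genes. Quasi-likelihood tests were adjusted over 9822 genes (Benjamini-Hochberg, 0.05). The fit was tested on simulated data. The biological coefficient of variation was 0.0422 and the median SE of the difference 0.093. Depth was 6.86 to 14.6 megareads. TMM rests on most genes keeping their share. Totals were compared by exact permutation tests. Within a group, pairs of replicates differed by more than sampling noise (chi-square per degree of freedom 1.63 to 7.82).

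The comparison, its 32 gene lists and the named genes were chosen with earlier results of these data known; lists are described by counts and medians. Named were the 12 largest differences each way with a mean of at least 5 CPM in the highest group and 10 summed counts in every group, 4 for each pattern, up to 4 called members of each list with at least 2 CPM, and 14 fixed genes whatever their result. Some genes that the rule took are not reported here. Genes sharing at least 20% of their 32-base words, or of their exon bases with the opposite strand, are uncertain. Alternatives were RLE, upper-quartile and no scaling factors, DESeq2 1.42.0, limma-voom (limma 3.58.1), no filter, a mean count of at least 100, the 16 libraries alone, a replicate block, a minimum ratio of 1.5, each replicate left out and, chosen after seeing the data, GC-dependent offsets. Transcript features are from GENCODE and promoters from RefSeq; because their build is not hg19 they were matched by gene.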

Additional observations from a re-analysis of the deposited data

Results flagged for a closer look

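The response to SK-3-91 differed between 4 and 8 h by a test of the difference itself for 3493 genes in the upward and 3245 genes in the downward direction, with the values described above.

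Within groups of 4 libraries, 76 sets (18 genes and the totals, in 4 groups each) were examined for a library set apart from the other 3 by Dixon's ratio. Chance marks about 1 in 20 such sets, and 3 were found. TNFSF13B was at 0.204 CPM in replicate 3 of DMSO at 8 h, against 0.252 to 0.258 CPM in the others. GADD45A was at 12 CPM in the same replicate, against 9.51 to 9.62 CPM. CALR was at 1860 CPM in replicate 4 of DMSO at 8 h, against 1710 to 1730 CPM. Each of the 3 genes kept its call and direction when that library was left out.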

How the results depend on the processing

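No named gene changed direction past the threshold under any alternative run. Against 3493 higher and 3245 lower genes, a test for a minimum ratio of 1.5 called 884 and 921. Against 391 genes at least 2-fold higher, upper-quartile factors gave 243 and no scaling factors 215. All other alternatives kept these 4 counts within 1.5 times. Of 64 list counts in each setting, those moved by more were 61 with the minimum ratio, 11 without scaling and 10 with upper-quartile factors. They were 2 with the 16 libraries alone, 0 with limma-voom and no filter, and 1 in each remaining setting with every library. Over all fits without a single library, 17 list counts moved and 1007 did not. These 17 were all in the JAK-STAT and TNF superfamily lists. Leaving out 1 library at a time gave 3392 to 3501 higher and 3140 to 3269 lower genes, and 374 to 445 and 524 to 601 at least 2-fold. Of 157 named genes, DUSP5, CD27, BCL2L1, RELT, SOCS1 and BMF lost their call when single libraries were left out. CDK12 gained one in 6 of these fits.

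With a replicate block 3488 genes were higher and 3249 lower, and all 157 named genes kept their side of the threshold. Replicate numbers do not pair the samples. Deviations of same-numbered libraries correlated at a median r of 0.000494 (lowest -0.0879, highest 0.28, 24 pairs), against 0.00806 for other numbers (72 pairs), and 5 of 16 libraries correlated best with their own number.

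Depth is least in SK-3-91 at 8 h, which limits genes that fell to a few counts. Transcripts per cell, protein levels and later times were not measured.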
